A study of Rattus norvegicus with 28 samples.

Results

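G protein, adenylyl cyclase and phosphodiesterase genes were described in C6, a rat glioma cell line that serves as a model of astrocytes, after a short exposure to antidepressant and other psychoactive drugs. The members were all array probes whose gene symbol begins with Gna or Prkar or Prkac, or with Gnb, Gng, Adcy, Pde, Akap or Rgs followed by a digit, apart from Rgs2. The rule found 100 probes for 95 genes among the 22523 probes of the array, of which 13793 carried 1 gene symbol. Every C6 culture was held in medium without serum for 24 h. Cultures were then left untreated (6 arrays) or given desipramine, fluoxetine, haloperidol (6 arrays each) or diazepam (4 arrays, replicates 1, 4, 5 and 6) at 25 µM for 2 h. Desipramine (a tricyclic that mainly blocks noradrenaline uptake) and fluoxetine (which mainly blocks serotonin uptake) are antidepressants, while haloperidol is a typical antipsychotic and diazepam a benzodiazepine. The labels call the replicates biological and name no solvent for the untreated cells. The cells are 1 tumour line, in which all groups share the same serum withdrawal, and 1 dose and 1 time were measured for each drug.

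Heterotrimeric G proteins carry signals from receptors on the cell surface to enzymes inside. The alpha subunit of Gs switches adenylyl cyclases on and that of Gi holds them back, the beta and gamma subunits signal as a pair, and RGS proteins end the signal by speeding the hydrolysis of GTP on the alpha subunit. Cyclic AMP made by adenylyl cyclases frees the catalytic subunits of protein kinase A (PKA) from its regulatory subunits, A kinase anchor proteins (AKAPs) hold the kinase at particular sites in the cell, and phosphodiesterases break cyclic nucleotides down. C6 cells have long been used to study how beta-adrenergic receptors couple to adenylyl cyclase. The symbol rule also takes in a few proteins with other work: Pde12 degrades short RNA chains, Pde6d binds lipid-modified proteins, and Rgs9bp anchors Rgs9.

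Each array detected 9839 to 10537 of the 22523 probes, at a detection p under 0.05 against the negative controls of that array. Of the astrocyte or glioma markers, 7 of the 8 on the array were detected on all 28 arrays, among them S100b, Vim, Nes and Gfap, while Aqp4 was detected on none. Markers of other cell types were partly detected. Of 5 neuron markers on the array, Syt1 and Nefm were detected on 28 arrays and Rbfox3 on 24, but Snap25 and Syp on none. Of 4 microglia markers, Cx3cr1 was detected on 16 arrays and Itgam on 9, but Aif1 and Ptprc on none. Of 3 endothelium markers, Cldn5 was detected on 26 arrays but Cdh5 and Tek on none, and of 4 oligodendrocyte markers, Mbp was detected on 12 but Mog, Mag and Mobp on none. Vim, an intermediate filament gene, fell by 0.35 on the log2 scale with fluoxetine (limma, adjusted p = 0.044), and Nefm, a neurofilament gene, fell by 0.29 with haloperidol (limma, adjusted p = 0.0438); the part of either in the members' results was not tested. Arrays numbered 5 and 6 stood apart from those numbered 1 to 4 when averaged over the groups, with mean scores of 11.2 and 12.1 on the first principal component (18.7% of the variance) against -9.64 to -1.24, so values are also given within these 2 sets of arrays. Untreated array 1 was the lowest of the 6 untreated arrays for 25 of the 60 member probes tested, against 4 to 9 for each of the others.

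Of the 100 member probes, 38 were detected on all 28 arrays, 22 on 4 to 27, 7 on 1 to 3 and 33 on none. Probes detected on at least 4 arrays were tested, which left 60 probes for 59 genes, and the other members have no test. All 3 detected G beta probes (Gnb1, Gnb2, Gnb5) and both PKA catalytic probes (Prkaca, Prkacb) were seen on every array, whereas Gnb3 and Gnb4 were seen on none. Among adenylyl cyclases, the enzymes that make cyclic AMP, Adcy5 was detected on all 28 arrays and Adcy8 on 14, Adcy2, Adcy4 and Adcy6 were detected on 2, 3 and 2 arrays, and Adcy1, Adcy3, Adcy7 and Adcy10 on none. Gnas, the gene of Gs alpha, had 1 probe detected on 17 arrays and another detected on none. Other members detected on no array were Gna14, Gna15, Gnai1, Gnal, Gnat1, Gng7, Pde1a, Pde1b, Pde4c, Pde6a, Pde7b, Pde8b, Akap4, Akap5, Akap7, Akap11, Akap14, Rgs1, Rgs4, Rgs5, Rgs8, Rgs18 and Rgs20. A probe that stays at background does not show that its gene is silent. Akap10, Akap13 and Akap9 each had a further probe at background beside those that were tested.

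**Figure D1:**
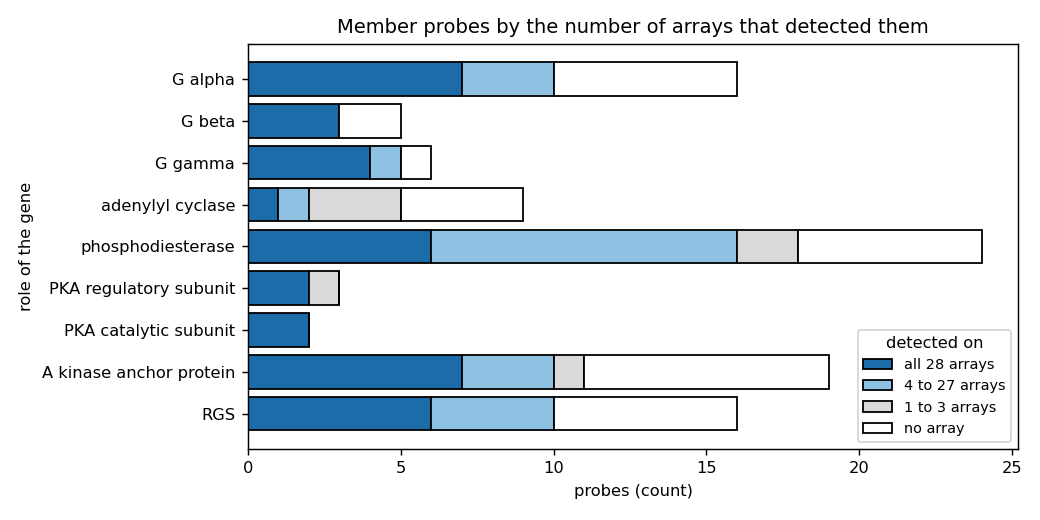
Number of member probes (horizontal axis, count) in each role, divided by the number of the 28 arrays that detected them. Adenylyl cyclases had 1 of 9 probes detected on every array, whereas both PKA catalytic probes and 7 of 16 G alpha probes were.

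The comparisons ask which members differ between any of the groups, which change with each drug, and which separate the antidepressants from the other drugs. Values are log2 intensities after background correction and quantile normalization. Changes are differences of group means with the standard error (SE) of 1 limma fit over all arrays. Adjusted p-values use the Benjamini-Hochberg method over all 11364 probes kept, with 0.05 as the threshold. In RNA from a whole culture, fewer cells that make a transcript and less transcript per cell cannot be told apart. Across the 5 groups, 10 of the 60 member probes (16.7%) differed by the moderated F test, close to the 16.1% of all probes tested. They were Rgs3, Rgs16, Rgs17, Pde4b, Pde7a, Pde9a, Pde10a, Gnb5, Akap1 and Akap17a, with adjusted p from 6.02e-07 for Rgs3 to 0.0398 for Akap1. No G alpha, G gamma, adenylyl cyclase or PKA subunit was among them. Rgs16 entered the test only because fluoxetine arrays detected it, so its place in this count and in those that follow is not support for a difference.

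The members changed little against untreated cells. Only 1 of the 60 probes (1.67%), Rgs3 with diazepam, differed by at least 1.5-fold with any drug, beside 274 of all probes tested (2.41%). The 95% interval of the change lay within 1.5-fold either way for 58 of the 60 members with desipramine, 56 with fluoxetine, 58 with haloperidol and 56 with diazepam. It did so for 10651, 10695, 10738 and 10714 of all 11364 probes tested, in the same order, so most probes of the array also changed little. The median log2 change over the 60 members was -0.00 with desipramine, 0.02 with fluoxetine, -0.00 with haloperidol and -0.02 with diazepam, beside -0.01, -0.00, -0.00 and 0.00 over all probes tested. The 4 comparisons share the untreated arrays, so their values are given side by side and not set against each other.

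With desipramine, 2 of the 60 members passed the test, 1 up (Rgs17) and 1 down (Pde9a), where 5.59% of all probes did, 3.37% up and 2.22% down. With fluoxetine 1 passed, Rgs16 upward, where 3.75% of all probes did, 2.21% upward. With haloperidol 4 passed, all downward (Gng11, Rgs3, Akap13 and Pde9a), where 3.73% of all probes passed in either direction and 1.45% downward. With diazepam 3 passed, Pde4b and Pde7a up and Rgs3 down, where 0.792% of all probes did, 0.378% up and 0.414% down. Between the antidepressants and the other drugs (the mean of desipramine and fluoxetine minus the mean of haloperidol and diazepam), 6 passed, where 7.15% of all probes did, 4.06% higher and 3.1% lower with the antidepressants. Rgs3, Rgs16, Rgs17, Pde10a and Akap17a were higher with the antidepressants, and Pde7a was lower. Of the 2 other drugs, haloperidol changed Pde7a by 0.08 from untreated cells and diazepam by 0.47. Rgs16 counts here through fluoxetine alone, since no array of the other drugs detected it, and its desipramine mean was 0.01 from the untreated mean. When replicate numbers entered as a block, the members that passed were 15 in the F test (26.2% of all probes), 3 with desipramine (9.72%), 3 with fluoxetine (7.58%), 4 with haloperidol (7.46%), 3 with diazepam (1.51%) and 7 between the classes (11.2%). The block also gave 17 members in the drug pairs described last (29.3%). The contrast between the classes concerns the drugs used, and each class holds 2 of them.

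**Figure D2:**
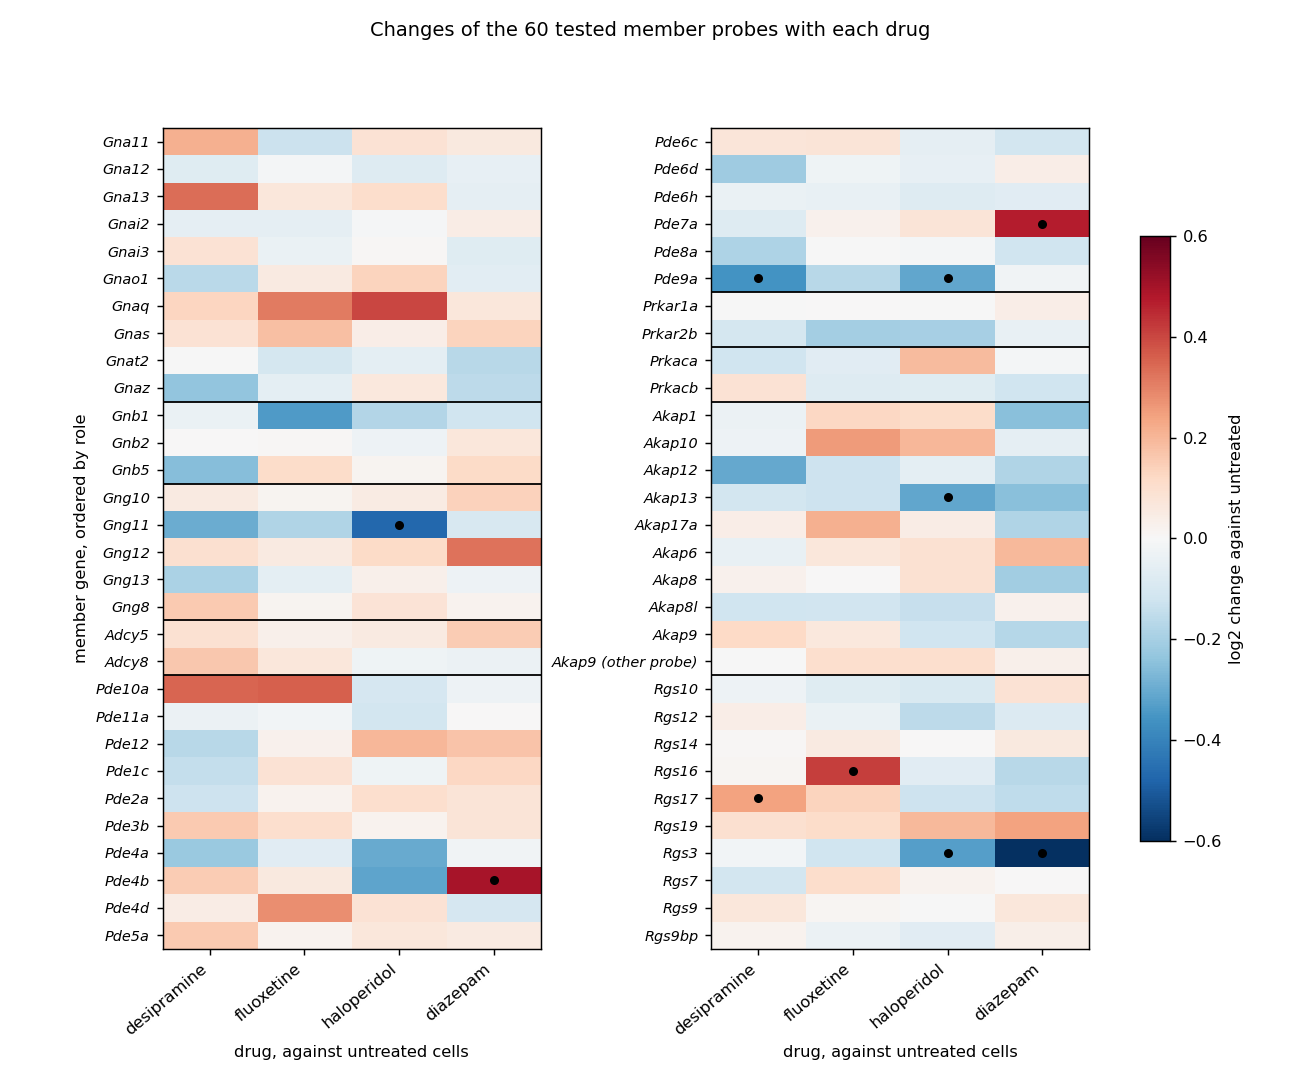
Log2 change of each of the 60 tested member probes (rows, ordered by role with lines between roles) with each drug against untreated cells (columns); red is higher, blue lower, and a black dot marks an adjusted p under 0.05. The dots are few, 2 with desipramine, 1 with fluoxetine, 4 with haloperidol and 3 with diazepam.

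Rgs3, which speeds the GTPase of Gi and Gq alpha subunits, was lower with haloperidol and with diazepam. Its log2 intensity ran from 10.73 to 10.85 in untreated cells (median 10.80), from 10.65 to 10.94 with desipramine (10.78) and from 10.50 to 10.79 with fluoxetine (10.71). It ran from 10.35 to 10.56 with haloperidol (10.46) and was 10.27, 10.09, 10.28 and 10.14 on the 4 diazepam arrays. No haloperidol or diazepam array reached the lowest untreated array, and the 2 antidepressant groups overlapped the untreated range. Rgs3 fell by 0.33 ± 0.06 (SE) with haloperidol (limma, adjusted p = 0.00156) and by 0.60 ± 0.07 with diazepam (limma, adjusted p = 6.53e-06), the latter 1.51-fold. The change was -0.02 ± 0.06 with desipramine (limma, adjusted p = 0.933) and -0.12 ± 0.06 with fluoxetine (limma, adjusted p = 0.368), with 95% intervals of -0.15 to 0.11 and -0.25 to 0.01. The antidepressants stood 0.40 ± 0.05 above the other drugs (limma, adjusted p = 9.09e-07), and all 12 antidepressant arrays were above the mean of the other 10. With arrays numbered 1 to 4 alone the diazepam change was -0.60 ± 0.09, and with arrays numbered 5 and 6 alone -0.62 ± 0.12. The haloperidol change was -0.33 ± 0.08 and -0.33 ± 0.12 in the same sets. Both calls against untreated cells held when any 1 array was left out. When each array was scaled to its median in place of quantile normalization, the haloperidol change was -0.37 but its adjusted p was 0.172.

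Rgs17, a regulator of Gi and Gz alpha subunits, was also higher with the antidepressants than with the other drugs. It ran from 10.93 to 10.996 in untreated cells (median 10.96), from 11.08 to 11.42 with desipramine (11.14) and from 10.96 to 11.18 with fluoxetine (11.13). It ran from 10.69 to 10.996 with haloperidol (10.86) and was 10.79, 10.86, 10.88 and 10.73 on the diazepam arrays. Every desipramine array was above every untreated array and every diazepam array below, while the fluoxetine and haloperidol groups overlapped the untreated one. Rgs17 rose by 0.24 ± 0.07 with desipramine (limma, adjusted p = 0.0256), and the other 3 changes (0.13 with fluoxetine, -0.12 with haloperidol and -0.15 with diazepam) did not pass. The antidepressants were 0.32 ± 0.05 above the other drugs (limma, adjusted p = 4.16e-05). The desipramine change was 0.20 ± 0.08 in arrays numbered 1 to 4 and 0.31 ± 0.14 in those numbered 5 and 6. The desipramine call was lost without untreated replicate 2 or 3 or desipramine replicate 4 or 5 (adjusted p 0.0523 to 0.0895), and median scaling gave 0.12 with an adjusted p of 0.667. The difference between the classes passed with median scaling and without any 1 array, but not in arrays numbered 5 and 6 (0.42, adjusted p = 0.092).

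Rgs16, a further regulator of Gi and Gq alpha subunits, was detected on 4 of the 6 fluoxetine arrays and on no other array. It was tested only through the group in which it was high, so its p is no independent support. The fluoxetine arrays ran from 5.08 to 5.69 (median 5.39), the untreated arrays from 4.85 to 5.13 (4.91), the desipramine arrays from 4.71 to 5.24 (4.98) and the haloperidol arrays from 4.77 to 5.04 (4.85), and diazepam gave 4.86, 4.93, 4.70 and 4.68. The lowest fluoxetine array lay within the untreated range. Since Rgs16 was not above background in untreated cells, its level with fluoxetine can only be set against the lowest detected signal of those arrays (5.26). The fluoxetine mean was 1.09-fold above that signal, and the lowest fluoxetine array was below it. The measured means were 5.38 ± 0.21 (SD, n = 6) and 4.96 ± 0.12 (SD, n = 6), a difference of 0.42 (limma, adjusted p = 0.00512). This difference was 0.57 ± 0.10 in arrays numbered 1 to 4 and 0.11 ± 0.13 in those numbered 5 and 6. The other 7 RGS family probes tested (Rgs7, Rgs9, Rgs10, Rgs12, Rgs14, Rgs19 and Rgs9bp) passed in none of these comparisons.

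The letters upstream of these genes are shown because cyclic AMP acts on transcription partly through a DNA element, the cyclic AMP response element, whose full form reads TGACGTCA and whose core reads TGACG. Sequences are the 250 bases before the start that RefSeq gives on the rat assembly GRCr8, 1 start per gene, and both forms were searched on both strands; the full form is its own reverse complement and contains the core. The table held promoters for 75 of the 95 member genes. The core was found in 13 of those 75 (17.3%) and in 19% of the 27457 promoters of the table, and the full form in 2 of 75 (2.67%) against 1.7%. Among the 10 members called against untreated cells or between the drug classes, 8 had a promoter there; 3 held the core and 1 the full form. Rgs3 (chr5:81093801-81094050, plus strand) held 1 core, 29 bases before the start, and Rgs17 (chr1:44729946-44730195, minus strand) held none. Capitals mark the letters searched for, and a match describes this window only.

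Rgs3: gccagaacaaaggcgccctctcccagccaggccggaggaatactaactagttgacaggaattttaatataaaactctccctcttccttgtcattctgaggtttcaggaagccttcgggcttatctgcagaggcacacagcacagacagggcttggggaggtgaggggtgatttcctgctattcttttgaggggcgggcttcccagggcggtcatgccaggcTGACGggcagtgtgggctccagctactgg

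Rgs17: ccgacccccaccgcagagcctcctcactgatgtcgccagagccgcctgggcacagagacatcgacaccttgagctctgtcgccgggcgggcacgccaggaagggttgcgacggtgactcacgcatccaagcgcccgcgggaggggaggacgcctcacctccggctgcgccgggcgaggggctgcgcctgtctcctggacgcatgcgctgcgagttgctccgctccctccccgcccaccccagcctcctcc

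G protein subunits themselves changed in 1 case. Gng11, a gamma subunit, fell by 0.47 ± 0.12 with haloperidol (limma, adjusted p = 0.0266). It ran from 8.39 to 8.93 in untreated cells (median 8.75), from 8.27 to 8.60 with desipramine (8.45), from 8.36 to 8.74 with fluoxetine (8.53) and from 7.80 to 8.59 with haloperidol (8.29), and was 8.84, 8.81, 8.64 and 8.25 with diazepam. Among the haloperidol arrays, replicates 2, 3 and 4 lay between 8.53 and 8.59 and replicates 1, 5 and 6 at 8.03, 7.80 and 8.04, so that the groups overlapped. The change was -0.39 ± 0.12 in arrays numbered 1 to 4 and -0.62 ± 0.17 in those numbered 5 and 6. The haloperidol call was lost without untreated replicate 1 or 4 or haloperidol replicate 1, 5 or 6 (adjusted p 0.0642 to 0.0934), and median scaling gave -0.49 with an adjusted p of 0.157. The moderated F test did not pass for Gng11 (adjusted p = 0.0536).

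Gnb5, the beta subunit that pairs with RGS proteins of the Rgs7 and Rgs9 type, differed across the groups (moderated F test in limma, adjusted p = 0.0387) but passed against untreated cells with no drug in the fit to all arrays. It ran from 7.64 to 8.205 in untreated cells (median 8.15), from 7.58 to 8.19 with desipramine (7.77), from 8.08 to 8.28 with fluoxetine (8.18) and from 7.89 to 8.36 with haloperidol (8.05), and was 8.32, 8.08, 8.15 and 8.18 with diazepam. The ranges overlapped, and 5 of the 6 desipramine arrays lay below the fluoxetine mean and below the diazepam mean. Against untreated cells the desipramine change was -0.25 ± 0.10 (limma, adjusted p = 0.136), but it passed without untreated array 1 (-0.34, adjusted p = 0.0166), without desipramine replicate 6 (-0.33, adjusted p = 0.0236) and with array weights, in which untreated array 1 had a weight of 0.452 (-0.33, adjusted p = 0.00774). Gnb5 was 0.37 ± 0.10 lower with desipramine than with fluoxetine (limma, p adjusted over probes and the 6 drug pairs = 0.0201) and 0.37 ± 0.11 lower than with diazepam (0.0374 by the same adjustment). The first of these was lost without desipramine replicate 3 or 5, and the second without desipramine replicate 2, 3, 4 or 5 or diazepam replicate 1, 5 or 6. Gnb1, the main partner of many gamma subunits, was -0.34 ± 0.12 with fluoxetine against untreated cells (limma, adjusted p = 0.148), which passed with the replicate number as a block (adjusted p = 0.0219).

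None of the 10 G alpha probes tested passed in any drug against untreated cells. Gna13, an alpha subunit of the G12 family, had the smallest p of them across the groups. Its log2 intensity was 5.30 ± 0.14 (SD, n = 6) in untreated cells and 5.64 ± 0.23 (SD, n = 6) with desipramine, with detection on 4 and 6 arrays, and the change of 0.34 ± 0.12 did not pass (limma, adjusted p = 0.0923). Gnaq, the alpha subunit that activates phospholipase C, had a wider error, with 0.40 ± 0.17 for haloperidol (limma, adjusted p = 0.23). Gnai2, the main Gi alpha subunit of many cells, moved by between -0.06 and 0.04 with the 4 drugs, and its 95% intervals reached from -0.21 to 0.21 at the widest. The detected Gnas probe ranged from 0.04 to 0.18 in its 4 changes, none of which passed.

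Neither adenylyl cyclase tested passed in any comparison. Adcy5, a cyclase inhibited by calcium and Gi, was at 6.13 ± 0.18 (SD, n = 6) in untreated cells. It was at 6.22 ± 0.14 (SD, n = 6) with desipramine, 6.17 ± 0.15 with fluoxetine, 6.19 ± 0.14 with haloperidol and 6.29 ± 0.12 (SD, n = 4) with diazepam. All these groups overlapped, and the 95% intervals of its 4 changes ran from -0.15 to 0.35 in all. Adcy8, a cyclase stimulated by calcium, was near the detection limit, with 3 of 6 untreated arrays above it, and its largest change was 0.16 ± 0.10 with desipramine (limma, adjusted p = 0.439).

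Phosphodiesterases held 4 of the members that changed against untreated cells or between drug classes, and they did not move together. Pde4b, a cyclic AMP-specific enzyme of the type inhibited by rolipram, rose with diazepam. Its log2 intensity ran from 6.81 to 7.49 in untreated cells (median 7.39), from 7.23 to 7.61 with desipramine (7.47) and from 7.16 to 7.57 with fluoxetine (7.35). It ran from 6.71 to 7.32 with haloperidol (6.97) and was 7.91, 7.82, 7.63 and 7.79 with diazepam. All 4 diazepam arrays were above all arrays of the other groups. The change was 0.50 ± 0.12 with diazepam (limma, adjusted p = 0.0362) and -0.31 ± 0.11 with haloperidol (limma, adjusted p = 0.1). Haloperidol and diazepam, the 2 drugs without antidepressant action, lay furthest apart of the 6 drug pairs, with haloperidol 0.81 ± 0.12 below diazepam, which is 1.75-fold (limma, p adjusted over probes and pairs = 4.44e-05). That gap was -0.82 ± 0.17 in arrays numbered 1 to 4 and -0.88 ± 0.14 in those numbered 5 and 6.

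The Pde4b call against untreated cells rested on single arrays. Untreated array 1, at 6.81, was the lowest of its group, and without it the diazepam change was 0.40 with an adjusted p of 0.0715. The call was also lost without untreated replicate 4 or 5 or any 1 of the 4 diazepam arrays (adjusted p 0.0508 to 0.13), and with median scaling (0.35, or 0.47 relative to the median of all probes, adjusted p = 0.548).

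Pde7a, a cyclic AMP-specific enzyme that rolipram does not inhibit, also rose with diazepam. It ran from 8.44 to 8.61 in untreated cells (median 8.54), from 8.22 to 8.66 with desipramine (8.44), from 8.35 to 8.74 with fluoxetine (8.53) and from 8.36 to 8.88 with haloperidol (8.56), and was 8.72, 8.89, 9.34 and 9.04 with diazepam. Every diazepam array was above every untreated array. The change was 0.47 ± 0.11 (limma, adjusted p = 0.028), with 0.29 ± 0.10 in arrays numbered 1 to 4 and 0.64 ± 0.13 in those numbered 5 and 6. The antidepressants were 0.30 ± 0.07 below the other drugs (limma, adjusted p = 0.00864), which held when any 1 array was left out but not with median scaling (-0.29, adjusted p = 0.101). Against untreated cells Pde7a changed by -0.08 ± 0.10 with desipramine, 0.03 ± 0.10 with fluoxetine and 0.08 ± 0.10 with haloperidol. Among drug pairs it passed only in those that include diazepam. The diazepam call was lost without untreated replicate 2, 3 or 4 or diazepam replicate 5 or 6, and without diazepam replicate 5 the change was 0.36 with an adjusted p of 0.222. Median scaling gave 0.31, or 0.42 relative to the median of all probes (adjusted p = 0.537).

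Pde9a, which hydrolyses cyclic GMP, fell with desipramine and with haloperidol. It ran from 8.39 to 8.91 in untreated cells (median 8.68), from 8.10 to 8.52 with desipramine (8.32), from 8.45 to 8.63 with fluoxetine (8.52) and from 8.19 to 8.50 with haloperidol (8.45), and was 8.71, 8.64, 8.78 and 8.54 with diazepam. The groups overlapped through untreated array 1, the lowest of its group. Pde9a fell by 0.36 ± 0.08 with desipramine (limma, adjusted p = 0.0086) and by 0.31 ± 0.08 with haloperidol (limma, adjusted p = 0.031). The desipramine change was -0.31 ± 0.10 in arrays numbered 1 to 4 and -0.44 ± 0.13 in those numbered 5 and 6, and the haloperidol change -0.24 ± 0.10 and -0.46 ± 0.13. Without untreated array 1 the changes were -0.42 (adjusted p = 0.00142) and -0.37 (adjusted p = 0.00733). The haloperidol call was lost without untreated replicate 2, 3 or 4 or haloperidol replicate 5 or 6 (adjusted p 0.0527 to 0.102), and with median scaling (-0.32, adjusted p = 0.348).

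Pde10a, which hydrolyses both cyclic AMP and cyclic GMP and is known for its high level in the striatum, separated the antidepressants from the other drugs. It ran from 5.84 to 6.42 in untreated cells (median 6.28), from 6.23 to 6.97 with desipramine (6.54), from 6.35 to 6.89 with fluoxetine (6.61) and from 5.92 to 6.41 with haloperidol (6.15), and was 6.13, 6.28, 6.45 and 5.99 with diazepam. The ranges overlapped, but all 12 antidepressant arrays were above the mean of the other 10 drug arrays. The difference was 0.42 ± 0.09 (limma, adjusted p = 0.00351), with 0.42 ± 0.12 in arrays numbered 1 to 4 and 0.41 ± 0.12 in those numbered 5 and 6, and it held when any 1 array was left out. Against untreated cells the change was 0.35 ± 0.12 with desipramine (limma, adjusted p = 0.106) and 0.36 ± 0.12 with fluoxetine (limma, adjusted p = 0.116). Among drug pairs Pde10a passed against haloperidol only, with desipramine (0.45 ± 0.12, limma, p adjusted over probes and pairs = 0.0274) and fluoxetine (0.46 ± 0.12, 0.0231). Fluoxetine was 0.39 ± 0.14 above diazepam (0.1 by the same adjustment). The other 12 phosphodiesterase probes tested passed neither against untreated cells nor between the classes. The promoter of Pde4b (chr5:122028706-122028955, plus strand) held no core, and that of Pde10a (chr1:54765669-54765918, minus strand) held 2, at 179 bases before the start and, on the opposite strand, at 104.

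Pde4b: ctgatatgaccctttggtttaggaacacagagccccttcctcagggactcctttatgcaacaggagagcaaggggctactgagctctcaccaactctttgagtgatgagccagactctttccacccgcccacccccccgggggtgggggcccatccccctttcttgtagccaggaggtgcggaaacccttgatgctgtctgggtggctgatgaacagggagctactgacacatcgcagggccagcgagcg

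Pde10a: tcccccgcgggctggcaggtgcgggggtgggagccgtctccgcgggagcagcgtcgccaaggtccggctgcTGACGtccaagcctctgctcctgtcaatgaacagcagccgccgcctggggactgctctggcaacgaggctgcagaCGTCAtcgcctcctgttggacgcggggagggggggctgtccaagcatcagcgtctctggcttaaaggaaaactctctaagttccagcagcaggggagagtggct

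PKA subunits did not pass in any drug against untreated cells. Prkar1a, a regulatory subunit, was at 12.11 ± 0.03 (SD, n = 6) in untreated cells and changed by -0.00, 0.00, -0.00 and 0.04 with desipramine, fluoxetine, haloperidol and diazepam (SE 0.06, 0.06, 0.06 and 0.07). Prkar2b, the regulatory subunit with the smaller F test p, had -0.20 ± 0.12 with fluoxetine (limma, adjusted p = 0.423). Prkaca, a catalytic subunit, was at 10.29 ± 0.14 (SD, n = 6) in untreated cells, 10.18 ± 0.18 (SD, n = 6) with desipramine and 10.48 ± 0.19 (SD, n = 6) with haloperidol. It was 0.31 ± 0.10 lower with desipramine than with haloperidol (limma, p adjusted over probes and pairs = 0.0713; over probes alone 0.0568, and 0.0319 with the replicate block). Prkacb changed by -0.12 to 0.09 with the 4 drugs, none past the threshold.

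A kinase anchor proteins gave 1 call against untreated cells. Akap13 fell by 0.31 ± 0.09 with haloperidol (limma, adjusted p = 0.0373). It ran from 7.19 to 7.74 in untreated cells (median 7.62), from 7.31 to 7.63 with desipramine (7.46), from 7.25 to 7.75 with fluoxetine (7.43) and from 7.13 to 7.47 with haloperidol (7.22), and was 7.27, 7.31, 7.40 and 7.29 with diazepam. Apart from untreated array 1, every untreated array was above every haloperidol array, and without it the change was -0.39 (adjusted p = 0.00408). The call was lost without any 1 of the other 5 untreated arrays or without haloperidol replicate 1, 3, 5 or 6 (adjusted p 0.0579 to 0.1). It was also lost in the authors' normalized values (-0.27, adjusted p = 0.0811). In arrays numbered 1 to 4 the change was -0.26 ± 0.11, and in those numbered 5 and 6 it was -0.42 ± 0.15. The second Akap13 probe was not above background.

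Akap17a, a splicing-related protein that binds PKA in the nucleus, was higher with the antidepressants than with the other drugs by 0.19 ± 0.06 (limma, adjusted p = 0.0358). It ran from 8.85 to 9.22 in untreated cells (median 9.10), from 9.03 to 9.18 with desipramine (9.12), from 9.10 to 9.51 with fluoxetine (9.25) and from 8.96 to 9.36 with haloperidol (9.13), and was 8.92, 8.997, 8.76 and 8.90 with diazepam. The fluoxetine group had the highest median and the diazepam group the lowest, and these 2 groups did not overlap (difference 0.39 ± 0.09, limma, p adjusted over probes and pairs = 0.00409). Against untreated cells the fluoxetine change of 0.21 ± 0.08 did not pass (limma, adjusted p = 0.134) but passed with the replicate block (adjusted p = 0.036). The change was 0.04 ± 0.08 with desipramine, 0.05 ± 0.08 with haloperidol and -0.18 ± 0.09 with diazepam. The difference between the classes was 0.16 ± 0.06 in arrays numbered 1 to 4 and 0.24 ± 0.09 in those numbered 5 and 6. It was lost without any 1 of 9 arrays (desipramine 3 or 4, fluoxetine 2 or 4, haloperidol 5 or 6, diazepam 1, 5 or 6; adjusted p 0.0508 to 0.0952) and with median scaling (0.21, adjusted p = 0.412). Akap12, a large scaffold for PKA at the membrane, was -0.31 ± 0.15 with desipramine (limma, adjusted p = 0.296), and passed with the replicate block (adjusted p = 0.0249). The promoter of Akap17a (chr12:21428248-21428497, minus strand) held the full TGACGTCA 212 bases before the start.

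Akap17a: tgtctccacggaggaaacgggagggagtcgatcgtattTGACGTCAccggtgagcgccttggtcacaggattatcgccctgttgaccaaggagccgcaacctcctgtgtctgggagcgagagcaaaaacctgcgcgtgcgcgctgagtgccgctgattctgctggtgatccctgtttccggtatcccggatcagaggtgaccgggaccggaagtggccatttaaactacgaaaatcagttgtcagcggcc

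**Figure D3:**
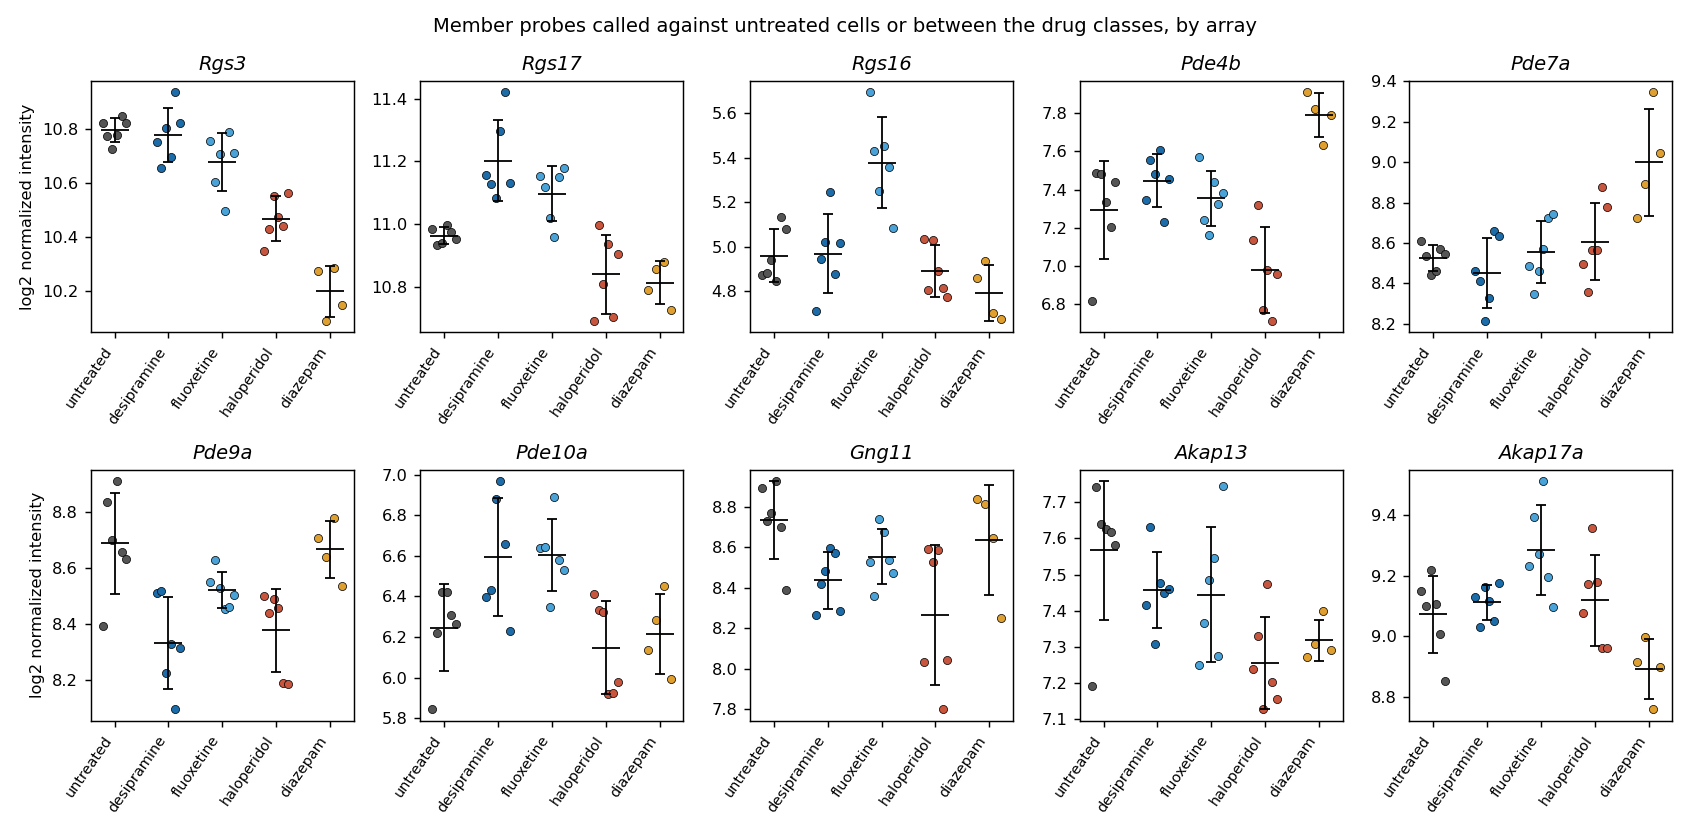
Log2 normalized intensity (vertical axes, which differ by panel and do not start at 0) of the 10 member probes called against untreated cells or between the drug classes, with a point for each array and the group mean ± SD. Rgs3 on the 4 diazepam arrays lies between 10.09 and 10.28, below all untreated arrays, and Pde4b on the same arrays lies between 7.63 and 7.91, above all other arrays.

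Set against each other directly, the drugs differed in 12 of the 60 members in at least 1 of the 6 drug pairs, with p adjusted over all probes and all 6 pairs, where 18% of all probes did. These were Rgs3, Rgs16, Rgs17, Pde4b, Pde7a, Pde9a, Pde10a, Pde12, Gnb5, Akap1, Akap8 and Akap17a. Desipramine and fluoxetine, the 2 antidepressants, differed in 2 members (Gnb5 and Rgs16, both lower with desipramine, where Rgs16 was not above background), where 7.27% of all probes passed, 3.96% lower with desipramine. Fluoxetine and diazepam differed in 7 (Rgs3, Rgs16, Rgs17, Akap1 and Akap17a higher and Pde4b and Pde7a lower with fluoxetine), where 5.05% did, 3.04% higher and 2.02% lower. Haloperidol and diazepam differed in 5 (Rgs3, Akap1 and Akap8 higher and Pde4b and Pde7a lower with haloperidol), where 3.42% did, 2.12% higher and 1.3% lower. Fluoxetine and haloperidol differed in 5, where 4.11% did, and desipramine differed in 5 from haloperidol (7.51%) and in 5 from diazepam (7.29%).

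Rgs3 differed in 5 of the 6 pairs, with the antidepressants highest, then haloperidol, then diazepam. Desipramine was 0.58 ± 0.07 above diazepam (limma, p adjusted over probes and pairs = 2.63e-06) and haloperidol 0.27 ± 0.07 above diazepam (0.016 by the same adjustment). The gap between fluoxetine and haloperidol was 0.21 ± 0.06 (0.0407 by the same adjustment). The 2 antidepressants did not differ past the threshold. The gap between fluoxetine and haloperidol passed in 18 of the 28 fits without 1 array, and that between haloperidol and diazepam was lost without diazepam replicate 4.

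Akap1, Akap8 and Pde12 are named here after their values were seen. Akap1, which anchors PKA to the outer membrane of mitochondria, ran from 6.39 to 6.74 with fluoxetine and from 6.37 to 6.76 with haloperidol, and was 6.04, 6.22, 6.20 and 6.19 with diazepam, below every array of those 2 groups. It was 0.38 ± 0.10 above diazepam with fluoxetine (limma, p adjusted over probes and pairs = 0.0181) and 0.36 ± 0.10 above it with haloperidol (0.0255). Akap8, a nuclear anchor protein, was 0.30 ± 0.08 higher with haloperidol than with diazepam (limma, p adjusted over probes and pairs = 0.0228), and the 2 groups overlapped. Pde12 was 0.37 ± 0.11 lower with desipramine than with haloperidol (limma, p adjusted over probes and pairs = 0.0463), and was detected on 2 of 6 and 6 of 6 arrays. The Pde12 difference passed in 10 of the 28 fits without 1 array. The Akap1 differences were lost without diazepam replicate 1, and that from haloperidol also without haloperidol replicate 6, and the Akap8 difference was lost without diazepam replicate 1 or 6. Median scaling ended 21 of the 29 pair differences that passed. When replicate numbers entered as a block and p was adjusted over the probes of a pair alone, further members passed (limma). Gnb1 passed between desipramine and fluoxetine (0.0282), Prkaca between desipramine and haloperidol (0.0319) and Akap8 between fluoxetine and diazepam (0.0378). Gna11, a G alpha gene also named after its values were seen, passed between desipramine and fluoxetine (0.0365). It was 0.34 ± 0.11 higher with desipramine, and the 2 groups did not overlap. Without the block its adjusted p was 0.0499 over the probes of the pair and 0.063 over probes and pairs. Between desipramine and diazepam Pde4b (0.0361), Pde6d (0.00912) and Akap8 (0.017) passed, and between haloperidol and diazepam Gng11 (0.0345) and Pde9a (0.0323).

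**Figure D4:**
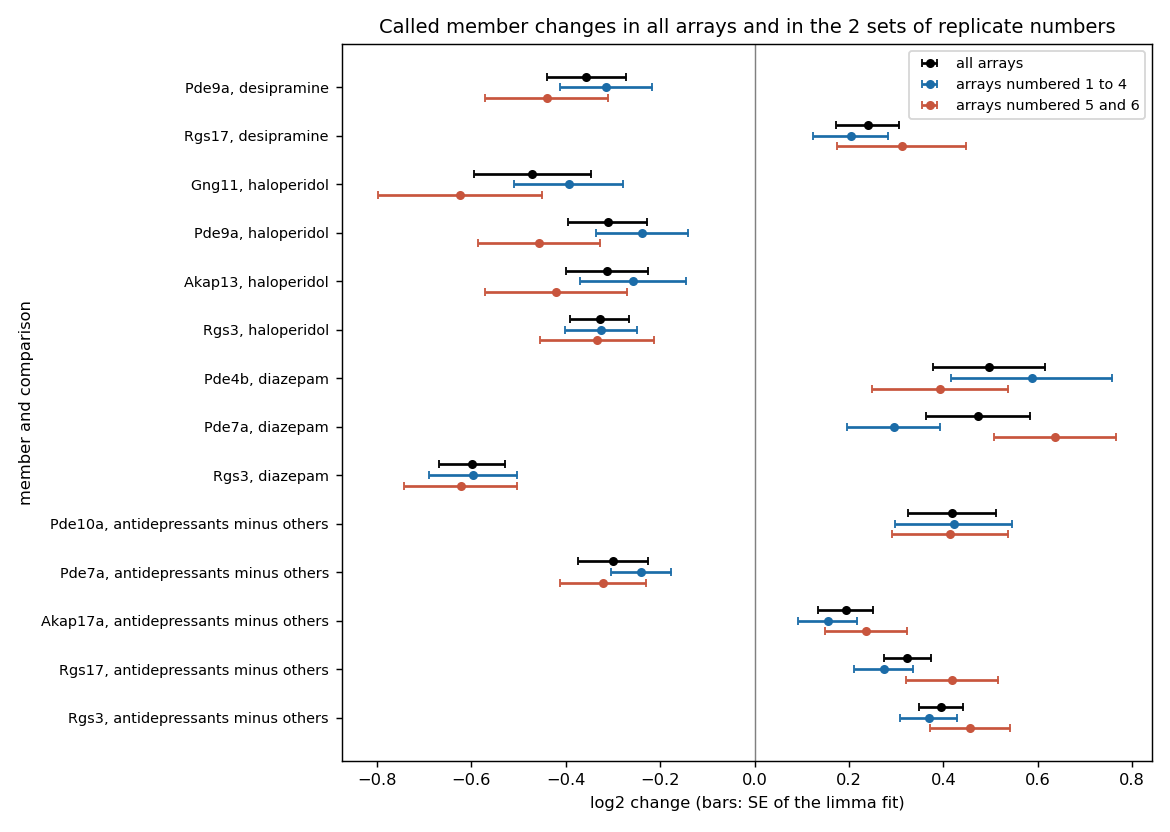
Log2 change (horizontal axis, points, with the SE as bars) of each called member in its comparison, apart from Rgs16, which most groups did not detect, in all arrays, in arrays numbered 1 to 4 and in arrays numbered 5 and 6; "antidepressants minus others" is the mean of desipramine and fluoxetine minus the mean of haloperidol and diazepam. All changes shown keep their sign in both sets; Pde7a with diazepam is 0.29 in the first set and 0.64 in the second.

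Other genes of the cyclic AMP pathway were read from a list of 59 genes, of which 48 were on the array and 33 were tested. Most receptors on the list were at background: 9 of the 15 on the array were detected nowhere, among them Adrb1, the beta-1 adrenergic receptor. With desipramine 3 listed genes rose and 1 fell, with fluoxetine 4 rose, with haloperidol 3 rose and with diazepam 1 rose, each by the same limma test. Of all probes tested, 3.37% rose and 2.22% fell with desipramine, and 2.21%, 2.28% and 0.378% rose with fluoxetine, haloperidol and diazepam. The list named transcriptional targets of cyclic AMP, most of which other signals also induce, and 8 of them were tested. Of these 8, 3 passed upward with each of desipramine, fluoxetine and haloperidol, and none with diazepam. Per1 with diazepam was 0.43 ± 0.12 (limma, adjusted p = 0.102), close in size to its called rise of 0.43 ± 0.11 with desipramine. Diazepam had 4 arrays and a larger SE. Nr4a1, Nr4a2, Nr4a3 and Pck1, also among the 8, passed with no drug. Nr4a2 was -0.17 with desipramine, -0.18 with fluoxetine, -0.27 with haloperidol and 0.29 with diazepam. With desipramine Fos rose by 0.75 ± 0.11, Gem by 0.44 ± 0.10 and Per1 by 0.43 ± 0.11, and Ppp1r1b, which encodes the PKA substrate DARPP-32, fell by 0.40 ± 0.11. With fluoxetine Per1 rose by 0.83 ± 0.11, Gem by 0.77 ± 0.10, Bdnf by 0.64 ± 0.09 and Ric8b, a chaperone of Gs alpha, by 0.36 ± 0.10. With haloperidol Per1 rose by 0.70 ± 0.11, Fos by 0.48 ± 0.11 and Gem by 0.42 ± 0.10. With diazepam Sik1, a kinase that restrains CREB coactivators, rose by 0.98 ± 0.19. The list holds Sik1 under transcription, so the count of targets does not cover it. Receptor kinases and arrestins gave no call in the 5 tested with any drug against untreated cells. Between the classes, 3 listed genes were higher with the antidepressants and 2 lower (limma), where 4.06% and 3.1% of all probes were. The receptor Htr2a, detected on 28 arrays, was 0.43 ± 0.09 higher but passed with no drug against untreated cells. Gem was 0.39 ± 0.07 and Bdnf 0.31 ± 0.07 higher. Sik1 was 0.46 ± 0.13 and Ppp1r1b 0.30 ± 0.08 lower.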

How the data were processed

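Total RNA from 28 C6 cultures was labelled with biotin and read on Illumina rat arrays with GenomeStudio 1.9.0, per the submitters' processing notes. The deposited non-normalized table gives a linear intensity per probe and array (array medians 80.8 to 108) and a detection p-value in steps of 1 in 825, per the file headers. The authors also deposited normalized intensity values by a method not given in the sources used here, and these served as an alternative only. A further 4 columns (2 arrays) had no sample and were not used.

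Intensities were corrected and quantile normalized with neqc in limma 3.58.1 (R 4.3.3), with an offset of 16 that pulls changes of dim probes toward 0. The 11364 probes that 4 or more arrays detected (p under 0.05) were kept. All arrays entered 1 limma fit with 1 mean per group, two-sided, adjusted by Benjamini-Hochberg. The fit was checked on simulated data. Members named are the largest called changes per comparison (up to 8), those called alike with several drugs, and the smallest F test p of each role. The number of arrays limits the precision. The members and lists were chosen with earlier results of these data known.

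Same-numbered arrays deviated together in all 6 pairs for desipramine (r 0.223 to 0.467) and fluoxetine (0.104 to 0.508) against untreated cells. They also did between desipramine and fluoxetine (0.139 to 0.462) or haloperidol (0.285 to 0.420) and, in 4 pairs, between fluoxetine and diazepam (0.257 to 0.510). Counts with the block and the calls it added are therefore given. Unless the block is named, the SE and p of named changes come from the fit without it. With the block, the adjusted p with desipramine was 0.00377 for Pde9a and 0.019 for Rgs17 (limma). The r was also positive in every pair, with lower minima, for diazepam against untreated cells (0.0358 to 0.361) and fluoxetine against haloperidol (0.0021 to 0.509). The same held for desipramine (0.0174 to 0.382) and haloperidol (0.0614 to 0.266) against diazepam. For haloperidol against untreated cells it ran from -0.00498 to 0.419. The labels do not say what a number shares.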

Additional observations from a re-analysis of the deposited data

Results flagged for a closer look

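In 3 of 75 sets of values tested, 1 array lay far from the rest of its group by Dixon's test, which chance does in about 1 in 20. All 3 were low values of untreated array 1, in members named above. Akap13 was at 7.19 on that array against 7.58 to 7.74 on the other untreated arrays. Pde10a was at 5.84 against 6.22 to 6.42. Gnb5 was at 7.64 against 8.06 to 8.205. All 3 probes were detected on that array.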

How the results depend on the processing

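The numbers of members called depended on the processing, and the share called among all probes (given as a percent after each number) moved with them. The percents do not apply to the unadjusted counts. In the main fit an unadjusted p under 0.05 (limma) was reached by 9 of the 60 members and 2022 of the 11364 probes with desipramine. These numbers were 4 and 1783 with fluoxetine, 7 and 1834 with haloperidol, and 9 and 1058 with diazepam. None of the 16 changes called against untreated cells or between the classes, and none of the 29 called between drugs, turned its sign in an alternative. Changes that had not passed could turn: Rgs3 with desipramine, -0.02 in all arrays, was 0.04 in arrays numbered 5 and 6. Scaling each array to its median left 2 members in the F test (6.01%), 1 with desipramine (2.16%), 0 with haloperidol (0.739%, with 7 members at an unadjusted p under 0.05 in limma), 1 with diazepam (0.185%), 4 between the classes (2.24%) and 5 in the drug pairs (6.79%). It also moved the median log2 change of all probes to -0.12 with diazepam, and the share of higher among all calls from 60.3% to 33.1% with desipramine, from 47.8% to 9.52% with diazepam (34.7% in the authors' normalized values) and from 56.7% to 69.4% between the drug classes. The authors' normalized values gave 1 with desipramine (5.22%). Without a detection filter haloperidol had 2 (1.62%), and with probes detected on at least 14 arrays fluoxetine had 0 (4.37%, with 3 members at an unadjusted p under 0.05), since Rgs16 was then not tested.

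With the replicate block fluoxetine had 3 members (7.58%), and none of the named changes lost its call. It added Akap12 with desipramine, Gnb1 and Akap17a with fluoxetine, Akap9 between the classes, and Akap8, Akap13, Gnb1, Gng11 and Pde6d in the F test, and it changed no other call against untreated cells. Fits to the arrays of the groups compared gave 0 with desipramine (3.74%, 11 members at an unadjusted p under 0.05), 1 with haloperidol (2.88%) and 1 with diazepam (0.422%). Arrays numbered 1 to 4 gave 6 in the F test (10.3%), 0 with desipramine (4.22%, 11 members unadjusted), 1 with haloperidol (1.94%), 1 with diazepam (0.15%) and 7 in the pairs (10.9%). Arrays numbered 5 and 6, at most 2 a group, gave 1 between the classes (0.59%) and 0 in the F test (0.405%, 13 members unadjusted), with desipramine (0%, 5), fluoxetine (0.22%, 0), haloperidol (0.0792%, 11) and diazepam (0.0176%, 7) and in the pairs (0.458%, 25).

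Leaving out 1 array at a time gave 6 to 12 members in the F test (13.4% to 18.2%), 1 to 4 with desipramine (3.87% to 7.34%), 1 to 1 with fluoxetine (2.7% to 4.16%), 1 to 5 with haloperidol (2.64% to 4.16%), 1 to 3 with diazepam (0.414% to 0.88%), 5 to 7 between the classes (5.23% to 8.1%) and 9 to 13 in the pairs (14.6% to 21.1%). The F test had 6 without diazepam replicate 5. Desipramine had 4 without its replicate 6 and 1 without its replicate 4 or 5 or untreated replicate 2 or 3. Haloperidol had 1 without its replicate 5 or 6 or untreated replicate 4, and 2 without its replicate 1 or untreated replicate 2 or 3. Diazepam had 1 without its replicate 5 or 6 or untreated replicate 4. Over the 16 changes and all arrays left out, 404 values stayed on their side of the threshold and 44 did not, and over the 29 changes between drugs 737 did and 75 did not. The cause of these shifts was not tested.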

Other observations

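For the 2 members with the smallest F test p, the named genes of closest pattern were sought by Pearson's r over the 5 group means. For Rgs3 they were Pdcd5, Pafah1b1, Mocs1, Atad2 and Clip1 (r 0.991 to 0.997), and over the 28 arrays the same genes had r of 0.00206 to 0.459. For Pde4b they were Mlycd, Ogfod2, Serhl2, Plcd3 and Masp2 (r 0.993 to 0.998), with 0.142 to 0.567 over the 28 arrays. The points share arrays and scaling. Of these 10 genes only Mlycd, which encodes malonyl-CoA decarboxylase, differed across the 5 groups (moderated F test in limma, adjusted p = 0.00539).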
